A study of Saccharomyces cerevisiae with 12 samples.

Results

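The 8 phosphate starvation genes PHO5, PHO84, PHO89, PHO8, SPL2, VTC1, VTC3 and VTC4 of budding yeast (Saccharomyces cerevisiae) were followed through 12 mRNA sequencing libraries. They were picked by gene name out of 6660 genes listed in 3 tables of FPKM, fragments scaled to transcript length and library size. Results of these data were known when the genes were picked, so their values are given as a description and without a test. The study compared strains with lesions in the contacts between the endoplasmic reticulum (ER) and mitochondria with strains or media that alter iron supply. No label names a medium low in phosphate.

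All strains were haploid BY4741 yeast, a laboratory strain of mating type a. The first table held wild type (WT) replicate 1, an mmm1Δ strain replicate 1 and an mdm34Δ strain. Mmm1 and Mdm34 are subunits of ERMES, the tether that joins the ER to mitochondria. The second table held WT replicate 2, mmm1Δ replicate 2, the point allele VPS13-D716H, VPS13-D716H with mmm1Δ, sam37Δ, VPS13-D716H with sam37Δ, and AFT1-C291F, whose library is also named Aft1-1up. Vps13 is a lipid transfer protein of other membrane contacts, and the D716H allele is known to bypass ERMES loss. Sam37 belongs to the machinery that inserts proteins into the mitochondrial outer membrane, and AFT1-C291F is an overactive form of the iron regulator Aft1. The third table held WT in a medium named clean YPD, without and with the iron chelator BPS at 100 µM for 4 h. The other 10 libraries came from cells in YPD, a rich medium, at an OD600 of 0.8 to 1. WT and mmm1Δ in YPD had 2 libraries each, 1 in each of the first 2 tables, and every other group had 1.

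Yeast senses phosphate through the PHO pathway. When phosphate is plentiful, the cyclin and kinase pair Pho80 and Pho85 phosphorylates the activator Pho4 and keeps it out of the nucleus. When phosphate is scarce, the inhibitor Pho81 blocks the kinase, and Pho4, together with Pho2 at many promoters, turns on genes for phosphate release, uptake and storage. Pho5 is the main secreted acid phosphatase, Pho84 the high-affinity proton-coupled phosphate transporter of the cell surface and Pho89 its sodium-coupled counterpart. Spl2 is a small protein that lowers uptake by the low-affinity transporters, and Pho8 is the alkaline phosphatase of the vacuole. Vtc1, Vtc3 and Vtc4 belong to the vacuolar complex that makes polyphosphate, the cell's phosphate store, and Vtc4 is its catalytic subunit.

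Pho4 binds the core CACGTG, and less tightly the core CACGTT. Both were searched on both strands in the 600 bases before each start codon, in the RefSeq copy of build R64 (sacCer3). CACGTG reads the same on both strands, is also bound by Cbf1, and was present in 434 of 6018 such windows (7.21%) and in all 8 of the members'. CACGTT was present in 18.7% of all windows and in 5 of the 8. The iron motif TGCACCC, a core of Aft1 sites, was present in 2.68% of all windows and in none of the 8. A window can run into a neighbouring gene, and no match printed here overlaps another. The sequences of PHO84, PHO5 and VTC3 are shown at length because the results turn on their contrast, and capitals mark every CACGTG or CACGTT, the latter written AACGTG where it lies on the other strand. They run from chrXIII:26148-26297, chrII:431182-431331 and chrXVI:517252-517401, each on the minus strand.
PHO84: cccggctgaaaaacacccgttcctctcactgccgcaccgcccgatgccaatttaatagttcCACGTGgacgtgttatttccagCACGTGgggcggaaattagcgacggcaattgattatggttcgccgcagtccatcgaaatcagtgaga
PHO5: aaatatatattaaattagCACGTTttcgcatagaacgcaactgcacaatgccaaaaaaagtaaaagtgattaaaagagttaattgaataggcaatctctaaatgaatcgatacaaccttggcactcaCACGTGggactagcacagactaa
VTC3: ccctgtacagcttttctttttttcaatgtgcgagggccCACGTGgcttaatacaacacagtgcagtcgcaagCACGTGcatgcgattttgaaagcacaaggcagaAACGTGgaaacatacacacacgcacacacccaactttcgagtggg

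The other 5 members are shown by 30 bases around CACGTG, again in capitals, so that the flanks can be compared. They run from chrII:798828-798857, chrIV:1420767-1420796, chrVIII:375444-375473 and chrX:413501-413530 on the minus strand for PHO89, PHO8, SPL2 and VTC4, and from chrV:302637-302666 on the plus strand for VTC1.
PHO89: atgacaatgcagCACGTGggagacaaatag
PHO8: tctacgtcgggcCACGTGcagcgatcactt
SPL2: agtatttttgctCACGTGaccgacaagggt
VTC1: aatagatattagCACGTGtctcggagagaa
VTC4: catccgCACGTGgctgcaCACGTGaatgaa
The first base of the nearest CACGTG lay 31 bases before the start codon in SPL2, which had 4 matches, and 534 bases before it in PHO8, which had 1. PHO84, VTC3 and VTC4 had 2 matches each, and PHO5, PHO89 and VTC1 had 1.

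None of the 8 coding regions overlapped another gene in the tables. PHO5 (YBR093C) lies at chrII:429548-430951, PHO84 (YML123C) at chrXIII:24037-25800, PHO89 (YBR296C) at chrII:796798-798522 and PHO8 (YDR481C) at chrIV:1418550-1420250. SPL2 (YHR136C) lies at chrVIII:374654-375100, VTC3 (YPL019C) at chrXVI:514511-517018 and VTC4 (YJL012C) at chrX:411234-413399. These 7 are on the minus strand, and VTC1 (YER072W), at chrV:302806-303195, is on the plus strand. VTC1 and SPL2 are the shortest, at 390 and 447 nucleotides, and VTC3 and VTC4 the longest, at 2508 and 2166.

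The labels of deleted genes held: MMM1, MDM34 and SAM37 were at 0 FPKM in each library labelled as lacking them. Over the 12 libraries, 6 mating type a genes lay between 7.66 and 65273 FPKM and 4 mating type alpha genes between 0 and 35.9. These ranges overlap, so the presence of a genes alone does not settle the mating type. The tables cannot check the point alleles of VPS13 and AFT1. The median gene lay between 12.3 and 15.5 FPKM in the first table, 40.2 and 44.3 in the second and 50.4 and 52.2 in the third, so levels were compared only within a table. Several comparisons carried a trend with transcript length. In AFT1-C291F the median log2 ratio over WT was -0.69 for genes under 500 nucleotides and 1.01 for those of 2000 or more. In mmm1Δ replicate 1 the same medians were -0.48 and 0.32, in mdm34Δ -0.79 and 0.49, in sam37Δ -0.24 and 0.37, and in mmm1Δ replicate 2 0.07 and 0.01. Ratios below are log2((FPKM + 1)/(FPKM + 1)), which understates the change of low genes. A value with the trend removed is given where it matters, and the removal takes out a trend with expression level as well as with length. Each library is a bulk culture, so a change in all cells and a change in some of them cannot be told apart. Read depth is unknown, since the tables hold no counts.

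Within every library, VTC1 had the highest FPKM of the 8, from 837 to 6460. PHO84 was second in 10 of the 12 libraries, and SPL2 was second in WT replicate 1 and in VPS13-D716H mmm1Δ. PHO89 was the lowest in 9, PHO8 in 2 and PHO5 in 1. In WT replicate 2 the order ran from VTC1 at 4044 through PHO84 at 863, SPL2 at 747, PHO5 at 532, VTC3 at 275, VTC4 at 230 and PHO8 at 173 to PHO89 at 141. With 1 library per group in a table, there is no spread against which neighbours in that order could be separated.

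Over the 7 libraries of the second table, PHO84 had the widest range, 9.42-fold from lowest to highest, and PHO8 the narrowest, 1.73-fold. PHO5 spanned 5.60-fold, VTC3 4.99-fold, PHO89 4.23-fold, SPL2 3.95-fold, VTC4 3.73-fold and VTC1 2.15-fold. The order was different over the 3 libraries of the first table, where VTC1 spanned 7.72-fold, PHO5 6.60-fold and VTC3 1.16-fold. The members thus did not move as 1 block.

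**Figure D1:**
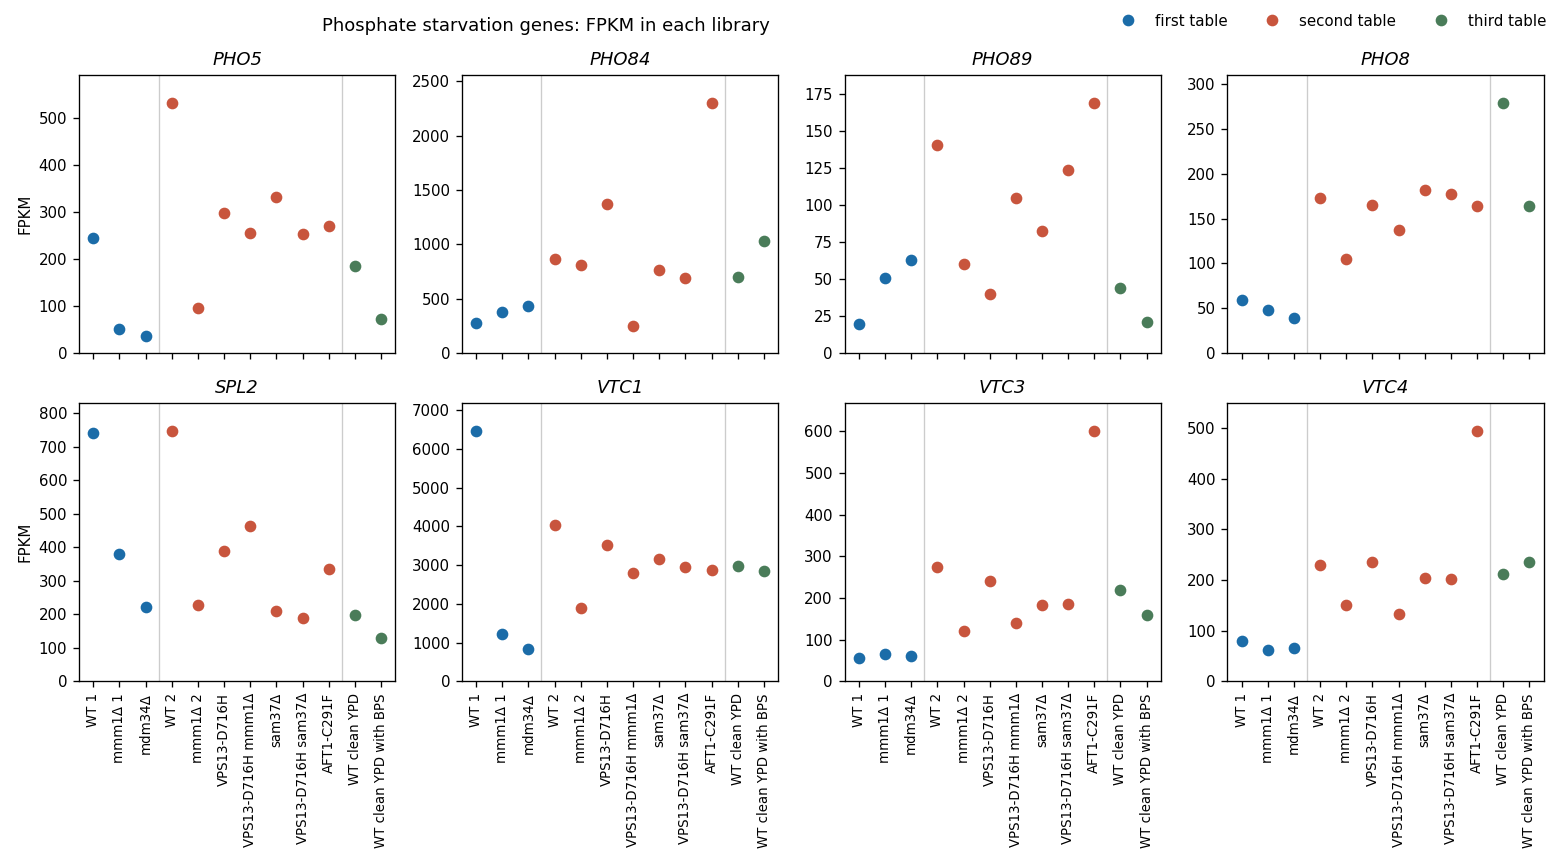
FPKM of each of the 8 genes (vertical axis, linear from 0) in the 12 libraries (horizontal axis), with a point per library and a colour per table; levels are comparable only within a colour. PHO5 and SPL2 are highest in the WT library of every table. Within the second table PHO84, VTC3 and VTC4 are highest in AFT1-C291F, and PHO84 is lowest in VPS13-D716H mmm1Δ.

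PHO5, the secreted acid phosphatase, was lower than the WT library of its table in all 9 comparisons with WT. Of these, 6 share WT replicate 2 and 2 share WT replicate 1. It stood at 244 FPKM in WT replicate 1, 51.9 in mmm1Δ replicate 1 and 36.9 in mdm34Δ. In the second table it was at 532 in WT, 95.0 in mmm1Δ, 331 in sam37Δ, 269 in AFT1-C291F, 298 in VPS13-D716H, 255 in VPS13-D716H mmm1Δ and 252 in VPS13-D716H sam37Δ. In clean YPD it was at 186 without BPS and 72.8 with it. Within the first 2 tables its lowest levels were in mmm1Δ and mdm34Δ in an otherwise WT background. The log2 ratio of mmm1Δ to WT was -2.21 in the first pair, 85th lowest of 5038 genes, and -2.47 in the second, 48th lowest of 6222, with a mean of -2.34 ± 0.19 (SD, n = 2 pairs). In mdm34Δ it was -2.69, and with BPS -1.34, 145th lowest of 6262. With the trend removed these values were -1.91, -2.34, -2.22 and -1.32, and PHO5 remained below WT in all 9.

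The coding sequence of PHO5 is 86.5% identical to that of its tandem neighbour PHO3, a constitutive acid phosphatase, and 83.6% and 83.5% identical to those of the acid phosphatases PHO11 and PHO12. Of the 50-base words of PHO5, 12.3% occur elsewhere in the genome, against 88.3% for PHO11 and 87.2% for PHO12, so values of the last pair cannot be separated from each other. None of the words of the other 7 members occur elsewhere. PHO3 was at 332 FPKM in WT and 114 in mmm1Δ in the first table, and at 397 and 166 in the second. PHO11 was at 481 and 221, then at 343 and 169, and PHO12 at 563 and 243, then at 369 and 204. All 3 were thus lower in both mmm1Δ libraries, by less than PHO5. In sam37Δ, PHO11 (507) and PHO12 (578) were above WT replicate 2 while PHO5 (331) and PHO3 (238) were below it.

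PHO84, the high-affinity transporter, differed from PHO5 in its pattern. It was at 276 FPKM in WT replicate 1, 380 in mmm1Δ and 435 in mdm34Δ. In the second table it was at 863 in WT, 813 in mmm1Δ, 768 in sam37Δ, 2302 in AFT1-C291F, 1371 in VPS13-D716H, 245 in VPS13-D716H mmm1Δ and 689 in VPS13-D716H sam37Δ. In clean YPD it was at 702 without BPS and 1028 with it. The extremes were AFT1-C291F, at a log2 ratio to WT of 1.41, and VPS13-D716H mmm1Δ, at -1.82. The mmm1Δ ratio was 0.46 in the first pair and -0.09 in the second, a mean of 0.19 ± 0.39 (SD, n = 2 pairs), so the pairs did not share a direction. With the trend removed the pairs were at 1.07 and 0.21 and mdm34Δ went from 0.66 to 1.69, while VPS13-D716H mmm1Δ was at -1.85.

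PHO89, the sodium-coupled transporter, was at 19.5 FPKM in WT replicate 1, 50.7 in mmm1Δ and 62.8 in mdm34Δ. In the second table it was at 141 in WT, 60.2 in mmm1Δ, 82.3 in sam37Δ, 169 in AFT1-C291F, 40.1 in VPS13-D716H, 105 in VPS13-D716H mmm1Δ and 124 in VPS13-D716H sam37Δ. In clean YPD it was at 44.1 without BPS and 20.8 with it. WT was thus its lowest library in the first table and its second highest in the second table. The mmm1Δ ratio was 1.33 in the first pair and -1.21 in the second, a mean of 0.06 ± 1.80 (SD, n = 2 pairs), the widest disagreement among the 8.

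SPL2, the regulator of low-affinity uptake, was at 741 FPKM in WT replicate 1, 380 in mmm1Δ and 223 in mdm34Δ. In the second table it was at 747 in WT, 227 in mmm1Δ, 209 in sam37Δ, 335 in AFT1-C291F, 390 in VPS13-D716H, 465 in VPS13-D716H mmm1Δ and 189 in VPS13-D716H sam37Δ. In clean YPD it was at 198 without BPS and 130 with it. Like PHO5, it was below WT in all 9 comparisons, and in the second table it was lowest where Sam37 was missing. The mmm1Δ ratios of -0.96 and -1.71 gave a mean of -1.34 ± 0.53 (SD, n = 2 pairs). With the trend with level and length removed, the ratios of the first table moved to -0.01 in mmm1Δ and -0.33 in mdm34Δ, while that of the second pair stayed at -1.67.

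PHO8, the vacuolar alkaline phosphatase, varied least in the second table. It was at 59.4 FPKM in WT replicate 1, 47.8 in mmm1Δ and 39.3 in mdm34Δ. In the second table it was at 173 in WT, 105 in mmm1Δ, 138 in VPS13-D716H mmm1Δ and between 164 and 182 in the other 4. In clean YPD it was at 280 without BPS and 165 with it. No ratio to WT reached 2-fold, and the lowest was -0.76 with BPS.

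VTC1, the small membrane subunit of the polyphosphate complex, was at 6460 FPKM in WT replicate 1, 1215 in mmm1Δ and 837 in mdm34Δ. In the second table it was at 4044 in WT, 1880 in mmm1Δ and between 2806 and 3512 in the other 5. In clean YPD it was at 2966 without BPS and 2836 with it. Within the first 2 tables its lowest levels were in mmm1Δ and mdm34Δ in an otherwise WT background. The mmm1Δ ratios were -2.41 and -1.10, a mean of -1.76 ± 0.92 (SD, n = 2 pairs), and mdm34Δ was at -2.95. With the trend with level and length removed these values were -1.08, -0.72 and -1.14, while the sam37Δ value went from -0.36 to 0.86. As deposited VTC1 was below WT in all 9 comparisons, and with the trend removed it was below in 6 and above in 3. VTC1 is both the shortest of the 8 and the highest in FPKM, and the parts of length and level in these shifts were not separated.

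VTC3 and VTC4, the regulatory and catalytic subunits, had patterns of their own. VTC3 was at 56.0, 64.9 and 60.4 FPKM in WT, mmm1Δ and mdm34Δ of the first table. In the second it was at 275 in WT, 120 in mmm1Δ, 183 in sam37Δ, 600 in AFT1-C291F, 240 in VPS13-D716H, 139 in VPS13-D716H mmm1Δ and 186 in VPS13-D716H sam37Δ, and in clean YPD at 220 without and 158 with BPS. It was nearly level across the first table and highest in AFT1-C291F in the second. VTC4 was at 79.9, 62.5 and 65.1 in the first table, at 230, 151, 205, 494, 235, 132 and 201 in the same order in the second, and at 212 and 235 in the third. Both subunits were lowest in the 2 libraries of the second table that lack Mmm1 and highest in AFT1-C291F.

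**Figure D2:**
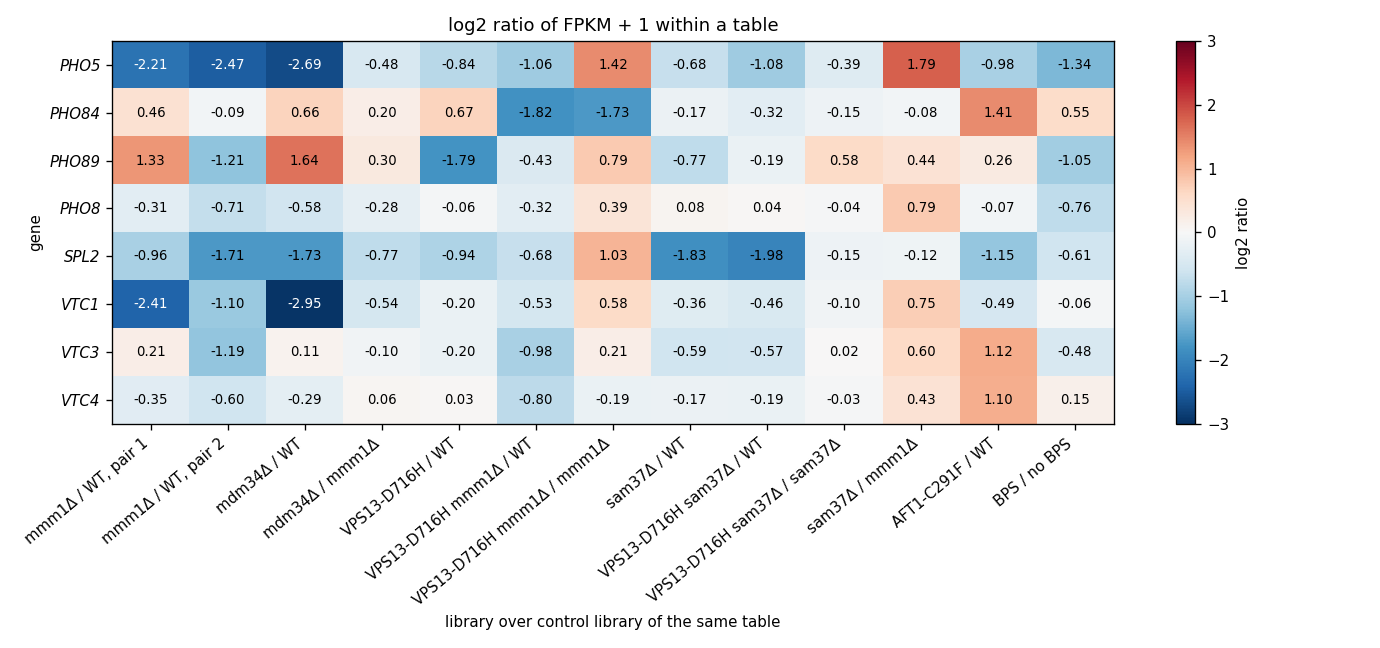
Log2 ratio of FPKM + 1, as deposited, for each of the 8 genes (vertical axis) in the 13 comparisons of libraries within a table (horizontal axis), with colour and number giving the ratio. PHO5, SPL2 and VTC1 are below 0 in every comparison with WT, and in AFT1-C291F PHO84 (1.41), VTC3 (1.12) and VTC4 (1.10) are above it.

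The comparison of mmm1Δ with WT addressed the loss of the ER tether and is the only one with replicates. In the first pair, 1 member was at least 2-fold higher (PHO89) and 2 were at least 2-fold lower (PHO5 and VTC1), where 8.28% and 15.8% of the 5038 genes averaging 5 FPKM or more were. In the second pair none was higher and 5 were lower (PHO5, PHO89, SPL2, VTC1 and VTC3), where 8.57% and 6.69% of 6222 genes were. Of the 8, 2 were at least 2-fold lower in both pairs, PHO5 and VTC1, and none was higher in both, against 3.72% and 3.85% of 6029 genes. With the trend removed PHO5 alone was lower in both, against 2.54% of genes, and none was higher in both, against 3.5%. Since the members were picked with such ratios known, nothing is read from these shares. In mdm34Δ, 1 member was higher (PHO89, 1.64) and 3 were lower (PHO5, SPL2 and VTC1), where 11.8% and 23.4% of genes were. In mdm34Δ PHO84 was at least 2-fold higher too, and SPL2 was no longer 2-fold lower, once the trend was removed. This comparison shares WT replicate 1 with the first mmm1Δ pair. Set directly against mmm1Δ replicate 1, no member of mdm34Δ reached 2-fold in either direction, where 0.704% of genes were higher and 2.07% lower.

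A list of 29 further phosphate genes, also written with results of these data known, was tested in mmm1Δ against WT with limma over 6029 genes, with the replicate number as a block. Over all of them, 2.74% were called higher and 1.01% lower at a Benjamini-Hochberg adjusted p under 0.05. Of the 27 listed genes that passed the filter on low values, 1 rose and 0 fell. Before adjustment 6 of the 27 were under 0.05 by limma, 3 in each direction, where 1143 of all 6029 genes were. The 3 lower genes were PHO3, PHO11 and PHO12, and values of the last pair cannot be separated from each other. PHM8, a nucleotide and lysophosphatidic acid phosphatase, was at 12.1 and 78.6 FPKM in WT and mmm1Δ of the first table and at 79.9 and 271 in the second. It rose by 2.18 on the log2 scale (SE 0.36, limma adjusted p = 0.0139, higher in 2 of 2 pairs), and that p ran from 3.6e-08 to 0.936 over the alternatives. HOR2, a glycerol phosphate phosphatase of the osmotic response, was at 56.2 and 223, then at 168 and 427. Its log2 change of 1.66 (SE 0.39) had a limma adjusted p of 0.0568. PHO3, at -1.39, had 0.0985 by limma, and PHO11, at -1.07, had 0.200. In both pairs these 4 alone of the list were at least 2-fold from WT on a shared side, PHM8 and HOR2 higher and PHO3 and PHO11 lower. PHM8, HOR2 and PHO3 were still so placed with the trend removed, and PHO11 was at -0.41 and -0.87. In mdm34Δ against WT, 4 of the 25 further genes that passed the filter were higher and 6 lower, where 11.8% and 23.4% of all genes were. PHM8 was highest there at 2.37 and PHM6 lowest at -2.08. With the trend removed, HOR2 was highest at 2.75 and PHO3 lowest at -1.23.

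The regulators of the pathway were not called. By limma, PHO4, the activator, had a log2 change of -0.17 (adjusted p = 0.831), and its partner PHO2 one of -0.33 (0.667). The limma values were 0.15 for the cyclin PHO80 (adjusted p = 0.845), -0.36 for the kinase PHO85 (0.686) and -0.46 for the inhibitor PHO81 (0.494). These p-values rest on 1 residual degree of freedom per gene, the disagreement between the pairs, and on 7.59 that limma borrowed from all genes. That disagreement may be technical, since no label says that the replicates were separate cultures. An adjusted p above the threshold does not show that a level was equal.

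**Figure D3:**
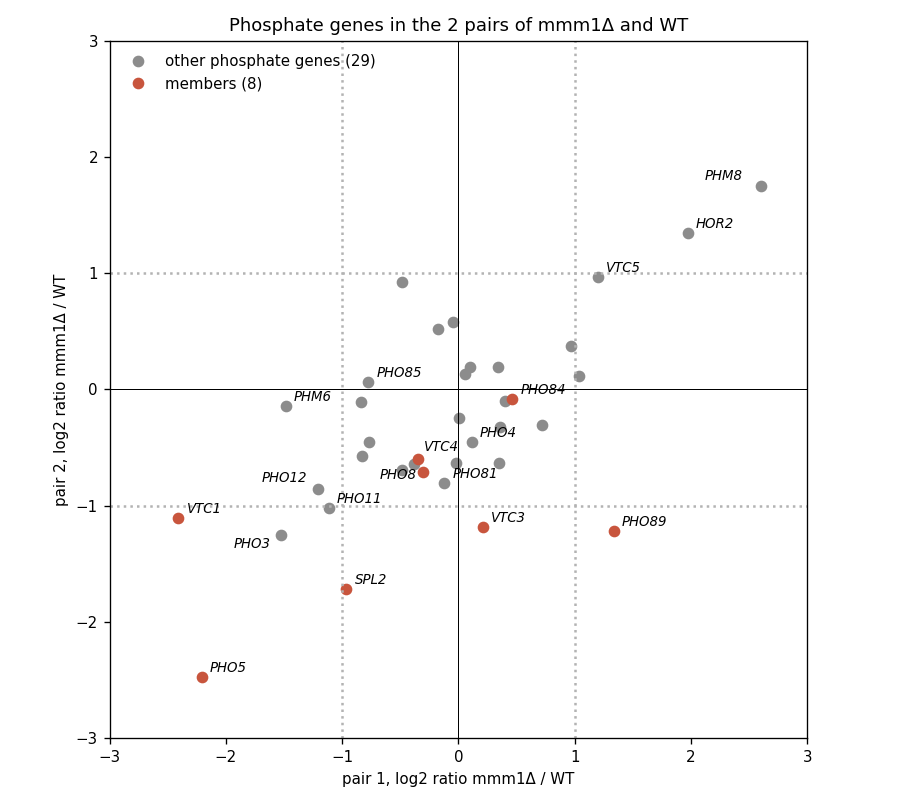
Log2 ratio of mmm1Δ to WT in the first pair (horizontal axis) and in the second (vertical axis) for the 8 members and the 29 further phosphate genes, with a point per gene and dotted lines at 2-fold. PHO5 and VTC1 lie past both lines on the low side, PHM8 and HOR2 on the high side, and PHO89 is higher in the first pair (1.33) and lower in the second (-1.21).

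The libraries with VPS13-D716H ask what the bypass allele does alone and on top of a deletion, each with 1 library and so no replicate check. Alone, 0 members were higher and 1 was lower, where 2.21% and 2.09% of genes were. That member was PHO89, at -1.79, which was 56th lowest of 6160 genes. In VPS13-D716H mmm1Δ against WT, 0 were higher and 2 were lower (PHO84 at -1.82 and PHO5 at -1.06), where 11.7% and 11.6% of genes were. Against mmm1Δ replicate 2, the double mutant had 2 members higher, PHO5 at 1.42 and SPL2 at 1.03, and 1 lower, PHO84 at -1.73, where 9.43% and 12% of genes were. SPL2 was at 0.88, under 2-fold, with the trend removed. PHO5 in the double mutant (255 FPKM) was thus above mmm1Δ (95.0) and below WT (532), and SPL2 (465) likewise lay between 227 and 747. PHO84 (245) lay below both single mutants and WT. These comparisons share the double mutant or WT replicate 2.

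PHM6, a small protein induced by low phosphate, was the lowest of the further phosphate genes in the double mutant, at 30.9 FPKM against 177 in WT, a log2 ratio of -2.48. Of the 28 further genes that passed the filter, 0 were higher and 7 lower against WT, where 11.7% and 11.6% of all genes were. Against mmm1Δ 1 was higher (PHO2, 1.31) and 4 were lower, with PHM6 lowest at -2.34. Of all genes, 9.43% were higher and 12% lower in that comparison.

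The sam37Δ libraries addressed a mitochondrial lesion outside the ER contact. Of the 8, 0 were higher in sam37Δ than in WT and 1 was lower (SPL2 at -1.83), where 6.32% and 10.7% of genes were. In VPS13-D716H sam37Δ, 0 were higher and 2 lower than WT (SPL2 at -1.98 and PHO5 at -1.08), where 6.81% and 10.9% were. That PHO5 value was -0.84, under 2-fold, with the trend removed. Adding VPS13-D716H to sam37Δ moved no member by 2-fold in either direction, where 1.18% of genes were higher and 1.02% lower. The member ratios of that comparison lay between -0.39 for PHO5 and 0.58 for PHO89. Set against mmm1Δ replicate 2, sam37Δ had 1 member higher, PHO5 at 1.79, and 0 lower, where 4.76% and 10.1% were. The length medians of that comparison were -0.41 for genes under 500 nucleotides and 0.36 for those of 2000 or more. With the trend removed PHO5 was at 1.77, and VTC1 went from 0.75 to 1.37, past 2-fold. Of the further genes, SYG1, whose product shares the phosphate-sensing SPX domain and whose locus overlaps another gene, was the highest in sam37Δ at 1.19. PHO88, an ER membrane protein, was the lowest at -1.29, or 750 FPKM against 1834 in WT. Both places hold only as deposited: with the trend removed SYG1 was at 0.84, below the polyphosphatase PPN2 at 1.32, and PHO88 was at -0.61, beside PHO87 at -0.61. In VPS13-D716H sam37Δ against WT the extremes as deposited were again SYG1 at 1.11 and PHO88 at -1.30. With the trend removed these genes were at 0.71 and -0.55, and the extremes were PPN2 at 1.07 and PHO81 at -0.58. In sam37Δ against mmm1Δ the extremes as deposited were PHO11 at 1.58 and HOR2 at -1.31. With the trend removed PHO11 was still highest at 1.58, while HOR2 was at -1.06 and VTC5 was lowest at -1.13.

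In AFT1-C291F, 3 members were at least 2-fold higher than WT, PHO84 at 1.41, VTC3 at 1.12 and VTC4 at 1.10, and 1 was lower, SPL2 at -1.15, where 15.6% and 14.2% of genes were. Of the 28 further genes that passed the filter, 7 were higher, with SYG1 highest at 1.55, and 1 was lower, HOR2 at -1.03. The trend with length was widest in this library. With the trend with level and length removed, no member was at least 2-fold higher: PHO84 was at 0.98, VTC3 at 0.13 and VTC4 at 0.33. SPL2 was then at -0.62, and PHO5, at -0.98 as deposited, was at -1.08. PHO81 went from 1.37 to 0.00 in the same way, SYG1 to 0.46 and HOR2 to -0.56. PHM6 moved the other way, from 0.69 to 1.19, and was then the 1 further gene at least 2-fold higher.

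With BPS, 0 members were higher and 2 lower than in clean YPD alone, PHO5 at -1.34 and PHO89 at -1.05, where 3.18% and 3.91% of genes were. The other 6 lay between -0.76 (PHO8) and 0.55 (PHO84), and none of the 27 further genes that passed the filter reached 2-fold. The length trend was nearly flat here, with medians of 0.01 for genes under 500 nucleotides and -0.01 for those of 2000 or more. With the trend removed PHO5 was at -1.32 and PHO89 at -0.99. In AFT1-C291F the same genes were at -0.98 and 0.26, a comparison within another table and against another WT library.

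**Figure D4:**
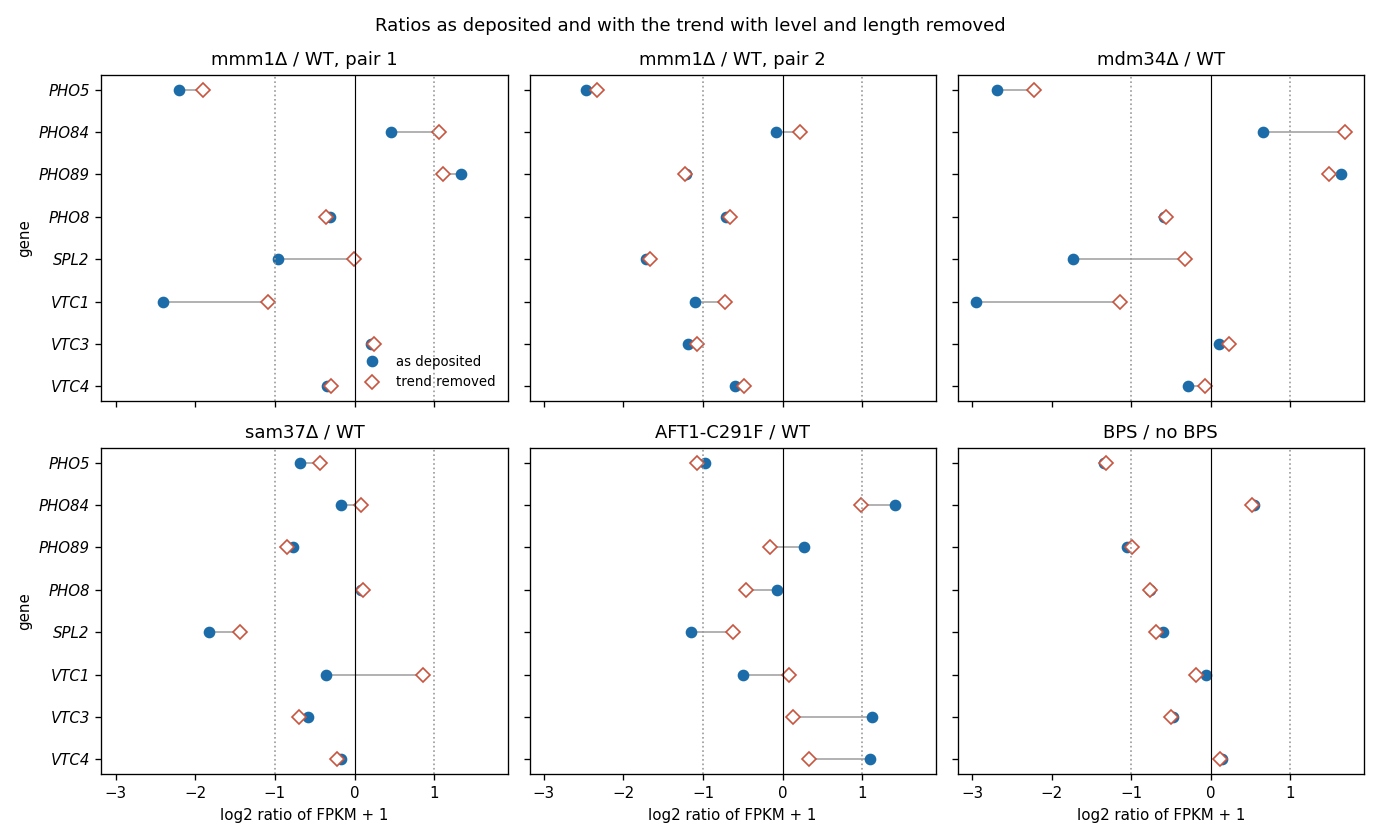
Log2 ratio of FPKM + 1 (horizontal axis) of the 8 genes (vertical axis) in 6 comparisons, as deposited (filled circles) and with the trend with level and length removed (open diamonds), with dotted lines at 2-fold. VTC1 moves from -2.41 to -1.08 in the first mmm1Δ pair and VTC3 from 1.12 to 0.13 in AFT1-C291F, while the values with BPS shift little.

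The patterns of the 8 were compared by Pearson r over the 12 libraries on log2(FPKM + 1) after the mean of each table was removed. These are descriptions, since all genes share the libraries and their length trends. VTC3 and VTC4 were the most alike, at 0.91, and PHO84 followed both, at 0.81 with VTC4 and 0.72 with VTC3. PHO5 was most like VTC1 (0.88), PHO8 (0.85) and SPL2 (0.74), and was at -0.14 with PHO84. PHO89 was highest with VTC3 (0.47) and lowest with VTC1 (-0.44). Some of these values depended on the libraries and scale. On ratios to WT, PHO5 with SPL2 was at 0.20, SPL2 with VTC1 at 0.23 (0.67 with table means removed) and PHO8 with SPL2 at -0.26 (0.41 with table means removed). PHO89 with VTC1 was at -0.84 on ratios to WT and at 0.21 over the second table alone. PHO5 with VTC1 was at 0.85 and 0.97 in the same alternatives, and VTC3 with VTC4 at 0.80 and 0.97. The median over the 28 pairs was 0.28.

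Among 5071 genes, those most like PHO84 were RBG2 (r = 0.97), the RNA polymerase I factor RRN7 (0.97), the small ribosomal subunit processing factor UTP6 (0.97), the tRNA methyltransferase subunit TRM82 (0.97) and the ribosome biogenesis protein NOP12 (0.96). Those most like PHO5 were TAX4 (0.96), the mitochondrial branched-chain aminotransferase BAT1 (0.95), the U1 snRNP protein LUC7 (0.95), the cell wall protein SVS1 (0.94) and the histidine synthesis enzyme HIS1 (0.93). These lists depended on the libraries used. Over the second table alone, 1 of the 5 was kept for PHO84 and 2 of the 5 for PHO5.

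**Figure D5:**
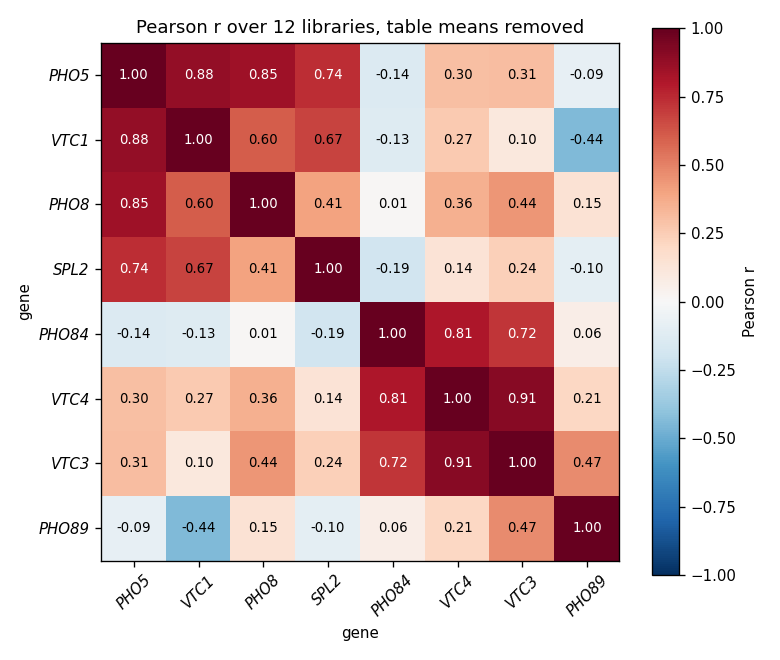
Pearson r between the 8 genes over 12 libraries after removal of table means, with both axes listing the genes and colour and number giving r. The highest values are those of VTC3 with VTC4 (0.91) and of PHO5 with VTC1 (0.88), and the lowest is that of PHO89 with VTC1 (-0.44).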

How the data were processed

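The authors deposited FPKM values per gene in 3 tables, per the file headers, and these were used as deposited. The submitters' processing notes name TopHat2 2.0.8, Cuffdiff 2.0.2 and build sacCer3. Their settings, and whether strand was used, are not given in the sources used here. Per the labels' protocols, libraries were made with TruSeq RNA v2 or KAPA stranded kits, without saying which. The label of WT replicate 2 names the table of the BPS libraries, but its column stands in the second table, where it was used. Read depth could not be recovered: 6.0 to 14.0% of 50 low values per library were within 0.05 of a whole multiple of 1 step.

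Members and lists were chosen with earlier results of these data known. Ratios were log2((FPKM + 1)/(FPKM + 1)) between libraries of a table, counted from 2-fold among genes averaging 5 FPKM or more. The trend on level and length was fitted over all genes with mgcv 1.9.3 and subtracted. The limma 3.58.1 fit (R 4.3.3, trend on, two-sided) of log2(FPKM + 1) used 4 libraries with the replicate number as a block, which is also the table. Same-numbered WT and mmm1Δ libraries deviated together (r = 0.62 over 6029 genes). The limma fit was tested on simulated data with the same noise for every gene. The spread between the real pairs was uneven (SD 0.05 for GDE1 and 1.80 for PHO89), so that run cannot show how well the fit serves here. Further phosphate genes were named if called by limma, past 2-fold the same way in both mmm1Δ pairs, extreme past 2-fold in a comparison, or among 5 regulators. PHO12, PHO87, PPN2 and VTC5, the PHO81 values outside mmm1Δ and the AFT1-C291F values of PHM6 were added after their values were seen. Motifs were searched with biopython 1.88. Alternatives were pseudocounts of 0.1 and 5, no filter, centred libraries, genes of at least 300 nucleotides alone at their locus, no block, each replicate left out, and, chosen after seeing the data, the trend removed in limma.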

Additional observations from a re-analysis of the deposited data

Results flagged for a closer look

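The effect of VPS13-D716H, as a log2 ratio, had opposite signs in WT and in a deletion background, with either effect at least 2-fold, for 4 members. The share of all genes with such a change was not computed, so nothing is read from that count. Each value rests on 1 library per group, and the difference was not tested. For PHO5 the effect was -0.84 in WT and 1.42 in mmm1Δ, a difference of 2.25. For PHO84 it was 0.67 in WT and -1.73 in mmm1Δ, a difference of -2.40. For PHO89 it was -1.79 in WT, 0.79 in mmm1Δ and 0.58 in sam37Δ, differences of 2.58 and 2.37. For SPL2 it was -0.94 in WT and 1.03 in mmm1Δ, a difference of 1.97. With the trend with level and length removed, the SPL2 effects were -0.79 and 0.88, both under 2-fold. No group had 4 libraries, so no library could be checked for standing apart from its group.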

How the results depend on the processing

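Of the 104 member ratios, 28 were past 2-fold. With the trend removed 9 of these were under 2-fold, with a pseudocount of 5 this held for 1, and none changed sign. Counts of members moved with the trend removed, from 1 to 2 higher in the first mmm1Δ pair, mdm34Δ and sam37Δ against mmm1Δ, from 2 to 1 higher in VPS13-D716H mmm1Δ against mmm1Δ, and from 3 to 0 higher in AFT1-C291F. The count lower went from 5 to 4 in the second mmm1Δ pair (VTC1), from 3 to 2 in mdm34Δ (SPL2), and from 2 to 1 in VPS13-D716H sam37Δ (PHO5) and with BPS (PHO89), and with BPS also from 2 to 1 at a pseudocount of 5. Among the further genes the removal gave 1 lower for 4 in the first pair, 1 for 2 in the second, 2 higher for 4 and 2 lower for 6 in mdm34Δ, 1 higher for 0 in VPS13-D716H mmm1Δ, 6 lower for 4 in that strain against mmm1Δ, 3 higher for 4 in sam37Δ against mmm1Δ, 2 higher for 3 in the first pair, 0 lower for 1 in both sam37Δ strains, and 1 higher for 7 and 0 lower for 1 in AFT1-C291F. A pseudocount of 5 gave 1 lower for 2 in the second pair, 2 higher for 4 in mdm34Δ and in sam37Δ against mmm1Δ, and 0 lower for 1 in AFT1-C291F. A pseudocount of 0.1 and no filter each gave 1 higher for 0 in VPS13-D716H mmm1Δ, and no filter gave 2 lower for 1 in VPS13-D716H sam37Δ and 1 lower for 0 against sam37Δ. Centring gave 1 lower for 2 in the second pair and 0 for 1 in AFT1-C291F, and genes of at least 300 nucleotides alone at their locus gave 0 higher for 1 in both sam37Δ strains.

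In limma, all genes gave 165 higher and 61 lower. Without the replicate block this became 0 and 0 with centred libraries, with 256 genes at an unadjusted p under 0.05, and the further genes went from 1 to 0. With the block, the counts were 248 and 124 at a pseudocount of 0.1 (further genes 2 higher), 114 and 26 at 5, 20 and 3 with no filter (0), 167 and 139 when centred, 364 and 179 for genes alone at their locus (3 higher, 1 lower), and 100 and 36 with the trend removed, which was chosen after seeing the data. The cause of these shifts was not tested. Leaving out a replicate leaves 1 pair and no residual degrees of freedom, so limma gave no test. The member means then ranged from -2.47 to -2.21 for PHO5, -0.09 to 0.46 for PHO84, -1.21 to 1.33 for PHO89, -0.71 to -0.31 for PHO8, -1.71 to -0.96 for SPL2, -2.41 to -1.10 for VTC1, -1.19 to 0.21 for VTC3 and -0.60 to -0.35 for VTC4.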
